A study of Mus musculus with 2 samples.

Results

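Pituicytes, the resident glia of the posterior lobe, were examined in dissociated whole pituitaries of male C57BL/6 mice aged 20 months (old) and 2 months (young). C57BL/6 is an inbred laboratory strain, and the labels name no engineered allele or treatment. Glands from 10 mice were combined into 1 library per age and profiled by droplet-based 3' RNA sequencing, in which each UMI (unique molecular identifier) counts 1 captured transcript. A barcode was taken as a pituicyte when the transcription factor genes Rax and Nkx2-1 and the collagen gene Col25a1 together gave at least 3 UMIs. It also had at most 1 UMI of the stem cell gene Aldh1a2, none of Tbx19, a gene of cells that make Pomc, and under 2% of its UMIs from prolactin (Prl). Candidates were barcodes with at least 2000 UMIs, at least 500 genes and at most 15% mitochondrial UMIs. These limits left 9783 old and 9210 young candidates, of which 53 old and 45 young barcodes were pituicytes, 98 of 18993 in all. Because the 3 marker genes chose the cells, their levels are a description, and because glands were pooled, no difference between ages could be tested and no value has a replicate check. Intervals are given at the 95% level and reflect only the error of counting.

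Pituicytes envelop the axon endings through which hypothalamic neurons release oxytocin and vasopressin into the blood, and in rodents they are known to withdraw from those endings when hormone demand is high. They develop from the floor of the hypothalamus, like tanycytes, the glia that line the lower part of the ventricle there, and they share transcription factors with them. During development this region secretes FGF, BMP and WNT ligands that direct formation of the anterior lobe, and in adults pituicytes are a source of signals to vessels and nerve endings.

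The old library held 138427393 UMIs and the young library 154510099. Candidate barcodes had a median of 3240 UMIs in the old library and 6585 in the young library. Pituicytes were deeper, with a median of 9324 UMIs and 3418 genes in old glands (range 2537 to 47838 UMIs) and 7575 UMIs and 2735 genes in young glands (range 2167 to 24669 UMIs). Mitochondrial genes gave a median of 7.83% of UMIs in old and 10.4% in young pituicytes. Of the candidate barcodes, 31 barcode sequences occurred in both libraries, and none was a pituicyte in both. No doublets were removed beyond the rule, since the automatic threshold of Scrublet, a doublet caller, marked 3 old and 0 young candidate barcodes, too few to be of use.

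Some barcodes taken as pituicytes also carried RNA of other cell types. Of the old ones 21, and of the young ones 4, had at least 2 UMIs of Pou1f1 (a transcription factor of hormone cells), over 15% of UMIs from growth hormone (Gh), at least 100 UMIs of Pomc, or at least 5 UMIs of a vascular, fibroblast, immune or oligodendrocyte marker list. Pou1f1 counted for 10 old and 2 young, and Gh for 7 old and 3 young. In old pituicytes 1 member held 101 UMIs of endothelial markers, 3 held at least 5 UMIs of T or NK cell markers and 3 of macrophage markers, against 0, 0 and 1 in young pituicytes. All 6 endothelial and all 5 T or NK cell markers were at 0 in the young ones. This set was defined after the values were seen, and results are given with all pituicytes and, where it matters, without these members (32 old and 41 young remaining). Old members of 11857 and 8479 UMIs and a young one of 7265 UMIs had 0 UMIs of Scn7a, Col13a1, Slc1a3, Gja1 and Cldn10. These genes are described further on as high in pituicytes. The old ones are in this set, but the young one, with 53 UMIs of Pomc, is not. Whether such members are pituicytes was not tested.

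Free RNA from lysed cells was the other visible contribution. Gh, a gene of hormone cells, gave a median of 236 UMIs per old pituicyte and 281 per young pituicyte, close to the 191 and 292 UMIs per barcode in barcodes of 500 to 900 UMIs. Over all pituicytes, the free RNA estimated from Gh was 27.8% of UMIs in old and 15.02% in young ones with these barcodes as its source, and 26.2% and 15.7% with barcodes of at most 100 UMIs. These estimates count every Gh UMI as free RNA, also in members with over 15% of UMIs from Gh. In the remaining 32 old and 41 young pituicytes, the free RNA so estimated was 8.16% of UMIs in old and 9.09% in young ones. The 3 marker genes were nearly absent from it, with at most 0.0171 UMIs of any of them per 2000 UMIs of such barcodes.

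All 3 marker genes were seen together in 26 old and 20 young pituicytes, 2 of them in 23 old and 21 young, and 1 in 4 old and 4 young. Their summed UMIs had a median of 9 in old pituicytes (range 3 to 82) and 16 in young pituicytes (range 3 to 47). Col25a1 ranged from 0 to 57 UMIs with a median of 8 in old pituicytes, and from 0 to 35 with a median of 11 in young ones. Rax reached 22 UMIs in old and 17 in young pituicytes, and Nkx2-1 reached 9 and 5. At the threshold, 8 old and 6 young pituicytes had exactly 3 UMIs of the markers, while 24 old and 10 young candidate barcodes had exactly 2 and were left out. A further 12 old and 10 young barcodes met the sum but were left out, mostly for a Tbx19 UMI (12 old and 8 young). The old and young distributions overlapped along most of their range for each marker.

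**Figure D1:**
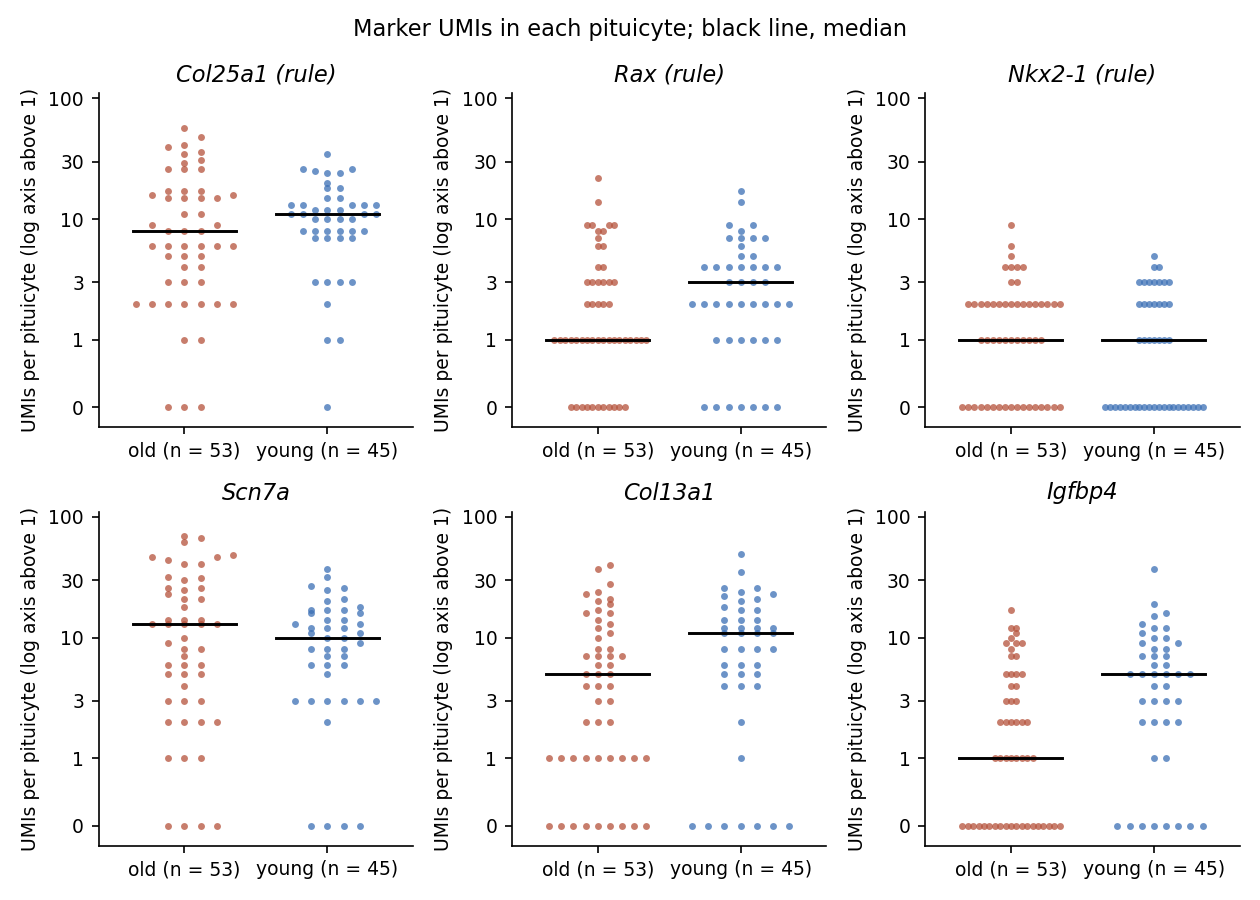
UMIs per pituicyte of the 3 rule genes (top) and of Scn7a, Col13a1 and Igfbp4 (bottom), on an axis that is logarithmic above 1. Each point is 1 pituicyte, old left and young right, and the black line is the median. Old and young overlap for every gene, and the median of Igfbp4 is 1 UMI in old and 5 in young pituicytes.

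Pituicytes were next compared with all other candidate barcodes of their library. Among the 6979 genes with at least 20 UMIs over both sets, 745 (10.7%) were at least 2-fold higher than in all other candidate barcodes in both libraries. Levels are given as CPM, which are UMIs scaled to a total of 1000000 without 7 hormone and 13 mitochondrial genes. The 15 genes with the largest folds at 200 CPM or more stood 22.5 to 83.5-fold above other old barcodes and 34.9 to 367.8-fold above other young ones, with 1 CPM added to both levels. Scn7a, which encodes a sodium-sensing channel of glia near the ventricles, led them with 1676 CPM in old and 1556 CPM in young pituicytes, against 19.1 and 3.24 CPM in other barcodes. At least 2-fold above other barcodes in both libraries were 13 of 20 measured genes on the list of tanycyte and radial glia genes, 10 of 15 hypothalamic transcription factors and 15 of 28 astrocyte genes. Since cells were chosen by expression, these folds and counts describe the set and carry no test.

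Several of the 15 genes encode transporters, junction proteins or collagens. The glutamate transporter gene Slc1a3 was at 563 CPM in old and 573 CPM in young pituicytes, and Gldc, of glycine breakdown, at 225 and 353 CPM. Gja1, the gap junction gene of astrocytes, was at 362 CPM in old and 429 CPM in young pituicytes. Cldn10, a tight junction gene of ion-permeable barriers, was at 824 CPM in old and 1471 CPM in young ones, and the membrane collagen genes Col13a1 and Col23a1 also ranked among the 15. Fgf10, the growth factor that the developing posterior lobe sends to the anterior lobe, was at 275 CPM in old and 469 CPM in young pituicytes. The transcription factor gene Tbx3, which marks the ventral hypothalamus, was at 342 CPM in old and 311 CPM in young pituicytes. The remaining members were Fndc3c1, Lrrtm3, Rgs7bp, Fat3, A2m and Gpc3.

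**Figure D2:**
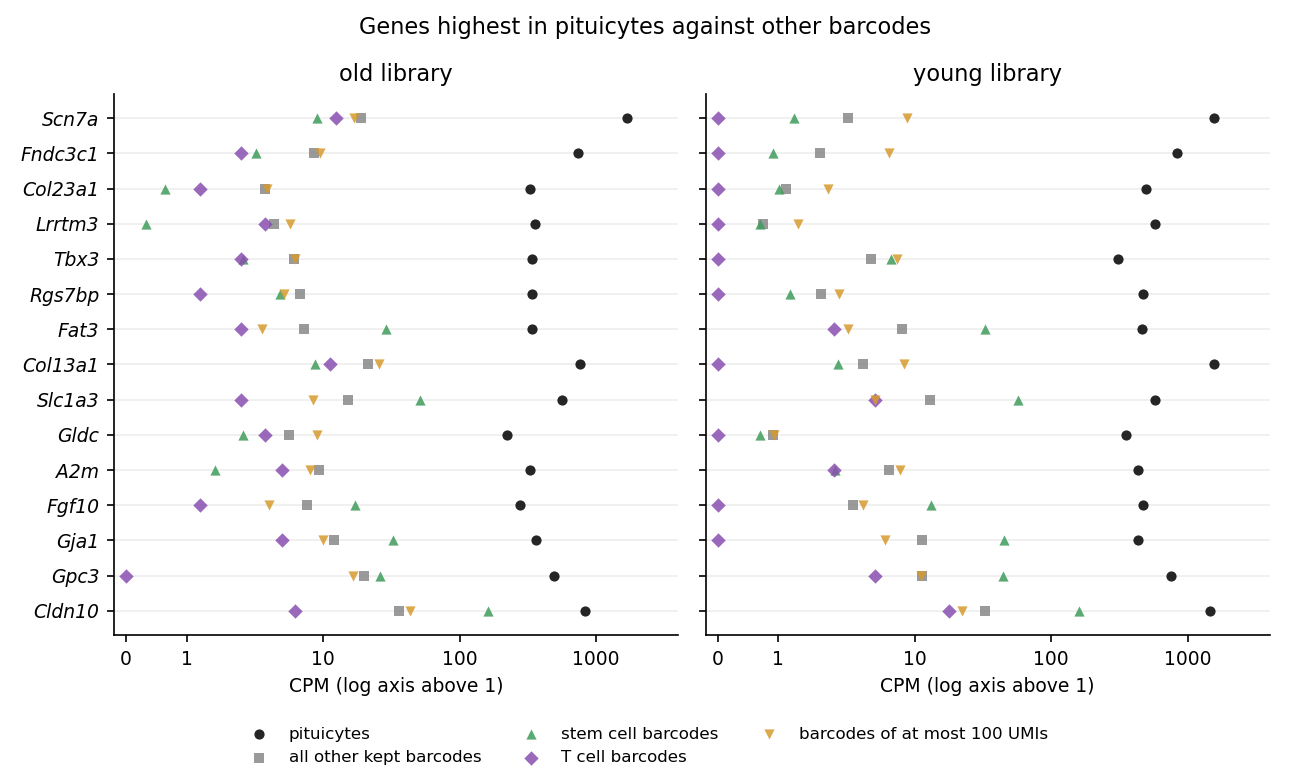
CPM of the 15 genes highest in pituicytes against other barcodes, old library left and young library right, on an axis that is logarithmic above 1. Pituicytes (black) lie at least 22.5-fold (with 1 CPM added) above all other candidate barcodes (grey) for each gene in both libraries, and also above stem cell barcodes, T cell barcodes and barcodes of at most 100 UMIs.

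The shares of cells with a UMI, after each cell was thinned to 2000 UMIs, were set beside those of T cell barcodes. Scn7a had a UMI in 77.4% (63.8 to 87.7) of old and 80.0% (65.4 to 90.4) of young pituicytes, while T cell barcodes gave 2.44% in the old and 0 of 78 in the young library. Stem cell barcodes gave 1.79% for Scn7a in the old and 0.261% in the young library. Before thinning Scn7a was seen in 49 of 53 old and 41 of 45 young pituicytes. Mest, an imprinted gene, had a UMI in 84.9% (72.4 to 93.3) of old and 91.1% (78.8 to 97.5) of young pituicytes, against 10.6% and 1.28% of T cell barcodes. Lhx2, a homeobox gene required for posterior lobe development in mice, was at 156 CPM in old and 161 CPM in young pituicytes, with 3.08 and 0.553 CPM in other barcodes.

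Classical astrocyte markers were scarce. Gfap gave 1 UMI in old and 3 in young pituicytes, the water channel gene Aqp4 gave 3 and 2, and S100b gave 0 and 0. Other genes of the astrocyte list were abundant, and 28 of its 33 genes reached 20 UMIs. Slc4a4, a bicarbonate transporter gene, was at 458 CPM in old and 768 CPM in young pituicytes, and the brevican gene Bcan at 241 and 457 CPM. Of the oligodendrocyte markers Mog and Mobp were at 0 in both sets, and among stem cell markers Aldh3a1 was at 0 in both. Sox2, which stem cells and glia share, had 114 UMIs in old and 73 in young pituicytes.

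The share of pituicytes among candidate barcodes was 0.542% (0.406 to 0.708) in old glands and 0.489% (0.357 to 0.653) in young glands, a ratio of 1.11 (0.731 to 1.69). The interval holds both a lower and a higher share in old glands. The direction differed with the depth limit. The ratio was 0.605 (0.404 to 0.910) with a minimum of 1000 UMIs, with 57 of 21976 old and 47 of 10958 young barcodes, and 2.91 (1.79 to 4.76) with a minimum of 5000 UMIs, with 40 of 2378 old and 33 of 5704 young barcodes. Applied after thinning to 2000 UMIs, the marker rule left 26 old and 37 young pituicytes and a ratio of 0.661 (0.385 to 1.12). No direction can be read from these shares.

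In old against young pituicytes, 563 of 6979 genes (8.07%) were at least 2-fold higher and 202 (2.89%) at least 2-fold lower. The median log2 ratio over all these genes was 0.08. Without the members that carried another cell type's RNA, 306 of 5185 genes (5.90%) were at least 2-fold higher and 132 (2.55%) at least 2-fold lower. The counts given for gene lists stand beside these shares, and a few members past 2-fold in a list lie near them. The 12 genes named as lower include Igfbp2, Igfbp4, Fbln2, Tgfbi and Wnt5a. Of the 12 named as higher, Prdx6 and Snhg11 rested mainly on 6 old cells. The 15 genes that set pituicytes apart had a median log2 ratio of -0.46, and 1 of them, Col13a1, was past 2-fold with all pituicytes.

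Of the insulin-like growth factor binding proteins, Igfbp2, Igfbp4 and Igfbp5 were at least 2-fold lower in old pituicytes and Igfbp3 was not. Igfbp4 had 168 UMIs and 304 CPM in old pituicytes and 282 UMIs and 859 CPM in young ones, 2.82-fold (2.32 to 3.44) lower in old. Per cell it ranged from 0 to 17 UMIs with a median of 1 in old, and from 0 to 37 with a median of 5 in young pituicytes. After thinning, Igfbp4 had a UMI in 34.0% (21.5 to 48.3) of old and 60.0% (44.3 to 74.3) of young pituicytes, against 1.63% and 11.5% of T cell barcodes. In all other candidate barcodes the order was opposite, at 27.7 CPM in the old and 12.4 CPM in the young library. Igfbp2, a tanycyte gene, was at 96.0 CPM in old and 314 CPM in young pituicytes, 3.27-fold (2.32 to 4.64) lower. Igfbp5 was at 1076 CPM in old and 2580 CPM in young pituicytes, 2.40-fold (2.16 to 2.67) lower. Without the members that carried another cell type's RNA and without 6 old members described further on, hereafter both sets, it was 1.67-fold (1.47 to 1.89) lower. In other barcodes it was at 688 and 852 CPM. On the list of the IGF axis, 1 of 8 measured genes was at least 2-fold higher and 3 were at least 2-fold lower in old pituicytes, with a median log2 ratio of -0.36, and without both sets 0 of 7 were higher and 1 lower, with a median of -0.74. The receptor gene Igf1r was at 143 CPM in old and 216 CPM in young pituicytes. Igfbp3 had 25 UMIs, 45.3 CPM, in a single old member and 6 UMIs, 18.3 CPM, in young pituicytes, and it is the gene on this list that was at least 2-fold higher.

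Some matrix genes were among the 12 lowest. Fbln2, which encodes the matrix glycoprotein fibulin-2, had 48 UMIs and 87.0 CPM in old and 96 UMIs and 292 CPM in young pituicytes, 3.36-fold (2.35 to 4.86) lower in old. In other candidate barcodes Fbln2 was at 3.76 and 2.65 CPM. After thinning it had a UMI in 5.66% (1.18 to 15.7) of old and 42.2% (27.7 to 57.9) of young pituicytes, and in 0 and 1.28% of T cell barcodes; before thinning it was seen in 22 of 53 and 33 of 45 pituicytes. Tgfbi, a matrix protein induced by TGF-beta, was at 105 CPM in old and 326 CPM in young pituicytes, 3.1-fold (2.23 to 4.35) lower. Mfap2, of elastic microfibrils, was 3.27-fold (1.80 to 6.13) lower and Islr, which encodes a secreted leucine-rich repeat protein, was 2.75-fold (2.06 to 3.70) lower. Col13a1 was at 770 CPM in old and 1560 CPM in young pituicytes, 2.03-fold (1.78 to 2.31) lower, but 1.87-fold lower without the members that carried another cell type's RNA and 1.33-fold (1.14 to 1.56) lower without both sets. On the list of collagens and matrix, 0 of 16 measured genes were at least 2-fold higher and 1, Col5a2, was at least 2-fold lower, and 14 of 16 had ratios below 1, with a median log2 ratio of -0.57.

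Signalling genes among the 12 lowest were Wnt5a, Bambi, Epha4 and Gem. Wnt5a, a WNT ligand, was at 63.4 CPM in old and 158 CPM in young pituicytes, 2.50-fold (1.6 to 3.95) lower, with 2.74 and 3.42 CPM in other barcodes. Bambi, a decoy receptor of BMP and TGF-beta, was 2.79-fold (1.84 to 4.29) lower, and the ephrin receptor gene Epha4 2.71-fold (1.76 to 4.23) lower. Gem, a small GTPase gene induced by activity, was 8.41-fold (4.35 to 17.8) lower, but 92.7% of its 55 young UMIs came from 5 cells, and without both sets it was 13.8-fold (4.46 to 68.8) lower. Tmem86a, an enzyme gene of ether lipid breakdown, was 3.89-fold (2.11 to 7.49) lower. All 12 genes named as lower stayed at least 2-fold lower without the members that carried another cell type's RNA. Each was also at least 2-fold higher in young pituicytes than in other young barcodes. That standing is partly set by how they were chosen. They had to reach 100 CPM and a 2-fold margin over free RNA in young pituicytes.

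The 12 genes named as higher in old pituicytes were chosen by the same limits in the old library. Prdx6, an antioxidant enzyme, had 519 UMIs and 940.2 CPM in old and 67 UMIs and 204 CPM in young pituicytes, 4.61-fold (3.57 to 6.03) higher in old. Snhg11, a long noncoding RNA gene, had 176 UMIs in old and 19 in young pituicytes, 5.51-fold (3.42 to 9.37) higher. Both were concentrated in few cells, as described next. Ptprd, a receptor phosphatase of neurons, was at 110.5 CPM in old and 27.4 CPM in young pituicytes, 4.03-fold (1.99 to 9.23) higher, but other candidate barcodes held 114 and 105 CPM. Of the 12 genes, 4 were at least 2-fold above other old barcodes: Prdx6, Nebl, Kcnh8 and Mark3. For Prdx6 this rested on the 6 old cells described next. The other 47 old pituicytes held it at 251 CPM, below the 351 CPM of other old barcodes. Kcnh8, a potassium channel gene, was at 127 CPM in old and 51.8 CPM in young pituicytes, 2.45-fold (1.43 to 4.44) higher, with 48.0 and 65.3 CPM in other barcodes. Nbeal1, Nbea, Zfp950, Pclo, Unc80 and Mga were 2.54 to 3.63-fold higher on 56 to 81 old UMIs each. Without the members that carried another cell type's RNA, 7 of the 12 remained at least 2-fold higher, and Nbea, Pclo, Unc80, Mga and Mark3 did not.

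A set of 6 old pituicytes stood apart in Prdx6 and Snhg11. Their summed UMIs of both genes were 162, 117, 90, 87, 40 and 40, while the next old pituicyte had 14 and the highest young one 18. They held 413 of the 519 Prdx6 UMIs and 123 of the 176 Snhg11 UMIs of old pituicytes. They were deep cells, with a median of 23493 UMIs, against 8843 in the other 47 old pituicytes. Per 10000 UMIs the 6 ranged from 21.9 to 72.5, the other old pituicytes from 0 to 17.4 and the young ones from 0 to 26.2. The young cell at 26.2 had 17 of the 19 young Snhg11 UMIs but 1 Prdx6 UMI. The set was picked after its values were seen, so what follows is a description without a test.

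The 6 cells carried Scn7a, Col25a1 and Rax but had few UMIs of some genes that the other pituicytes carried. Scn7a was at 2538 CPM in the 6 cells, 1410 CPM in the other old and 1556 CPM in young pituicytes, and Col25a1 at 1677, 1109 and 1593 CPM. Rax was at 477 CPM in the 6 cells, 235 CPM in the other old and 503 CPM in young pituicytes, while Nkx2-1 was at 84.6, 175 and 168 CPM. Col13a1, in contrast, had 7 UMIs in the 6 cells and 418 in the other old pituicytes, or 53.8, 990.4 and, in young pituicytes, 1560 CPM. In the same order Gja1 was at 100, 443 and 429 CPM and Fgf10 at 177, 306 and 469 CPM. Slc1a3 was higher in the 6 cells, at 908, 457 and 573 CPM. Btbd17, Fbln2 and Tgfbi had 0 UMIs in the 6 cells, against 91, 48 and 58 in the other old pituicytes. The young cell with 17 Snhg11 UMIs also had 0 UMIs of Col13a1 and of Btbd17, with 18 of Col25a1 and 12 of Scn7a.

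Other genes were high in the same 6 cells. The thyrotropin receptor gene Tshr was at 262 CPM in the 6 cells, 33.2 CPM in the other old and 15.2 CPM in young pituicytes. The homeobox gene Six3 was at 1462, 322 and 563 CPM, and the glial transcription factor gene Sox9 at 669, 114 and 152 CPM. Hepacam, a glial adhesion gene, had 24 UMIs in all 6 cells, 2 in the other old pituicytes and 4 in young ones. Iigp1, an interferon-induced GTPase gene, had 49 of its 50 old UMIs in 4 of the 6. Of the 6 cells, 1 carried another cell type's RNA by the limits above.

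**Figure D3:**
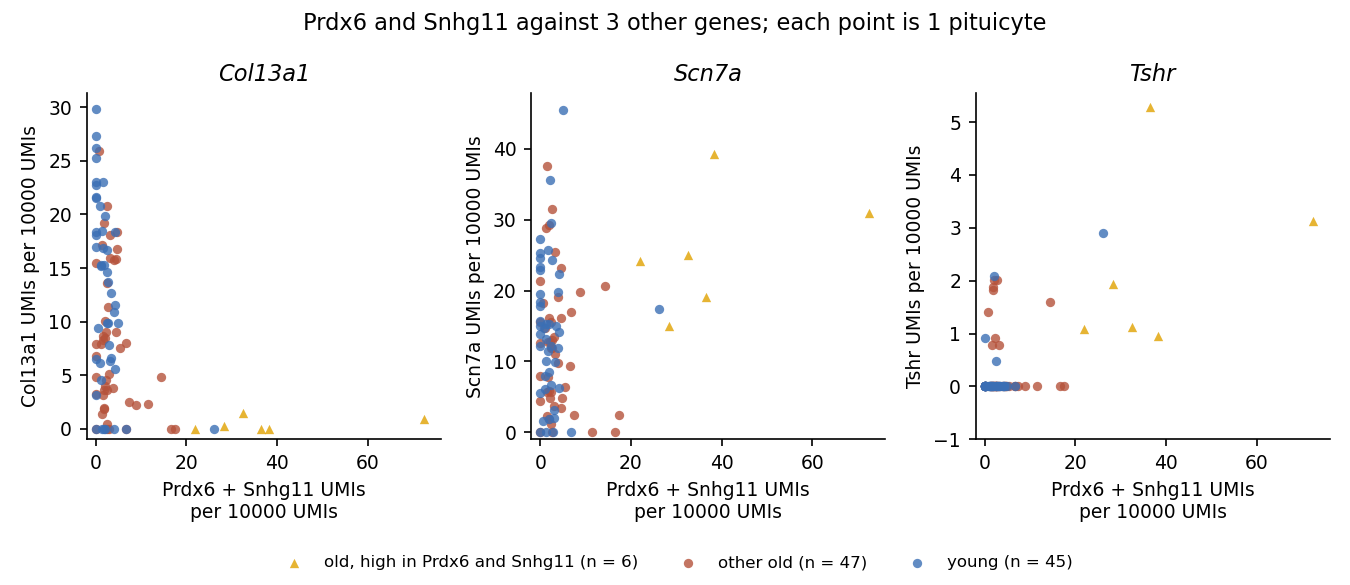
Summed Prdx6 and Snhg11 UMIs per 10000 UMIs (horizontal) against Col13a1, Scn7a and Tshr UMIs per 10000 UMIs (vertical), 1 point per pituicyte. The 6 old cells (triangles) lie at 21.9 or more with Col13a1 at 1.5 or less, and 1 young cell lies among them at 26.2.

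Leaving out both sets, which keeps 27 old and 41 young pituicytes, 174 of 4428 genes (3.93%) were at least 2-fold higher and 152 (3.43%) at least 2-fold lower in old pituicytes. The median of the 15 genes that set pituicytes apart was then -0.13, and 1 of them was at least 2-fold lower. This was Col23a1, at 3.02-fold (2.11 to 4.41) lower, and 124 of its 182 UMIs in old pituicytes had come from the 6 cells. Cldn10 was 1.97-fold (1.65 to 2.35) lower. Prdx6 was 1.31-fold (0.887 to 1.93) higher and Snhg11 0.620-fold (0.247 to 1.44) of the young level, with 9 old and 19 young UMIs. The exclusion was one-sided for Snhg11, because the 6 old cells were cut at 30 summed UMIs of both genes. The young cell with 17 of these 19 UMIs was kept, although its 26.2 per 10000 lay above the 21.9 of 1 excluded old cell. No direction can be read from this Snhg11 ratio. Of the 12 genes named as lower, 10 remained at least 2-fold lower, with Igfbp4 at 1.93-fold (1.52 to 2.46) and Islr at 1.6-fold (1.14 to 2.26). Fbln2 was 2.99-fold (1.85 to 5.01) lower and Igfbp2 2.2-fold (1.47 to 3.38) lower. Of the 12 genes named as higher, 6 remained at least 2-fold higher, among them Kcnh8 at 3.05-fold (1.62 to 6.02) and Ptprd at 3.18-fold (1.25 to 9.06).

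**Figure D4:**
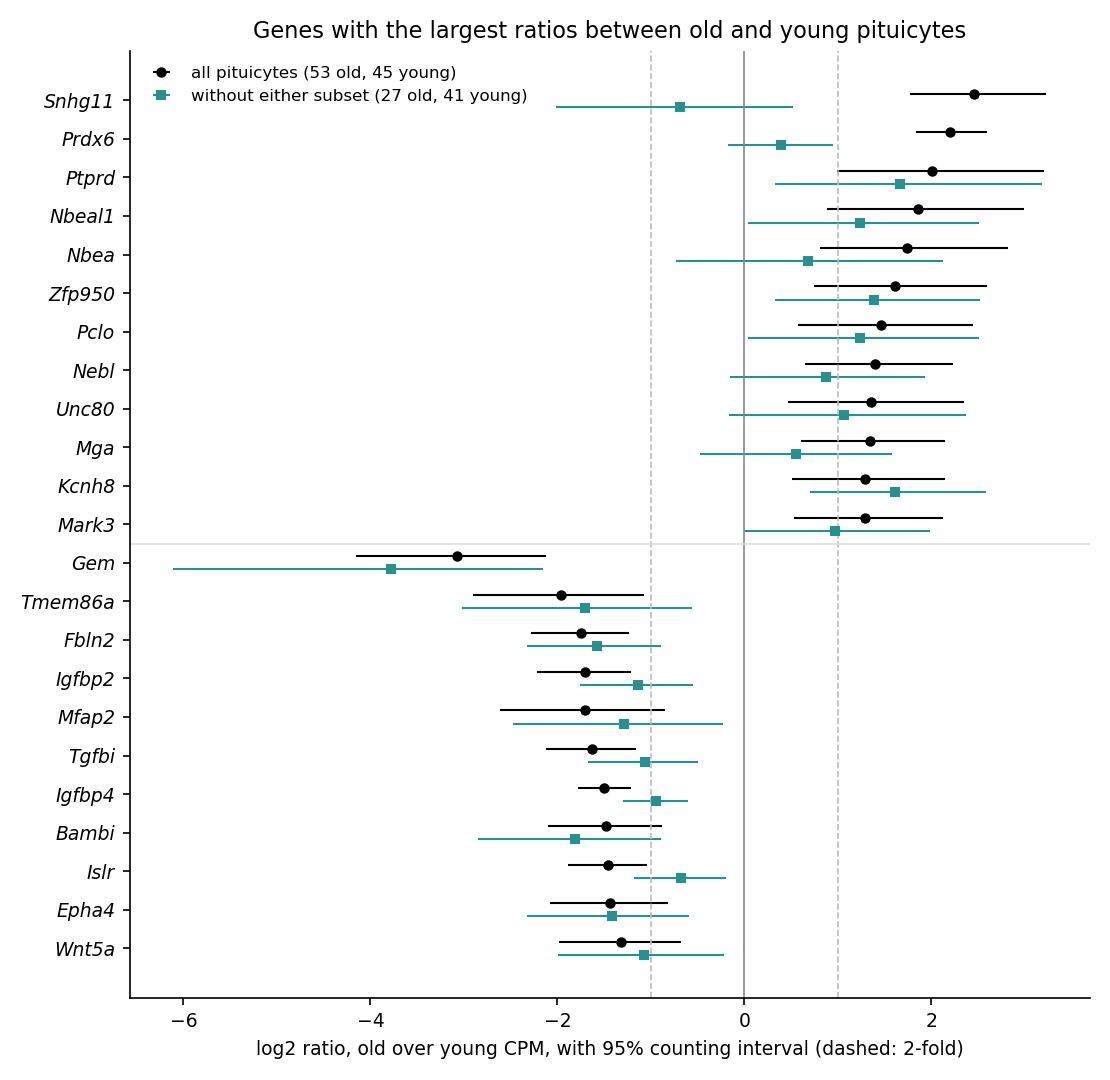
Log2 ratio of CPM, old over young, for the 12 genes named as higher (upper rows) and 11 of the 12 named as lower in old pituicytes (lower rows), with 95% intervals for counting error. Black points use all pituicytes and teal squares leave out both sets described in the text. Snhg11 and Prdx6 lie near or below 0 as squares, whereas 9 of the 11 lower genes shown stay beyond the dashed line at 2-fold. The Snhg11 square keeps 1 young cell with 17 of the 19 young UMIs.

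Developmental signals of the posterior lobe were described with the list of FGF, BMP, SHH and WNT signalling, where 17 genes were measured. Of these 1 was at least 2-fold higher and 3 were at least 2-fold lower in old pituicytes, with a median log2 ratio of -0.34, and without both sets 2 of 14 were higher and 5 lower. Fgfr1, an FGF receptor gene, was at 250.0 CPM in old and 503 CPM in young pituicytes, 2.01-fold (1.59 to 2.54) lower, and 2.34-fold (1.68 to 3.30) lower without both sets. The WNT receptor gene Fzd1 was 2.30-fold (1.51 to 3.52) lower, while the WNT modulator gene Dkk3 had 38 UMIs in old and 9 in young pituicytes, 2.51-fold (1.19 to 5.91) higher. Fgf10 was 1.70-fold (1.35 to 2.15) lower with all pituicytes, but 1.17-fold (0.901 to 1.54) lower without both sets. On the Notch list all 4 measured genes had ratios below 1, and 1, Notch1, was past 2-fold on 19 old and 23 young UMIs, 2.03-fold (1.06 to 3.95) lower with all pituicytes and 4.01-fold (1.35 to 16.1) lower without both sets.

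Transcription factor genes of the hypothalamic lineage came next. Of 15 measured, 3 were at least 2-fold higher and 0 at least 2-fold lower in old pituicytes, with a median log2 ratio of -0.06. The 3 were Id3, Id2 and Six6. Without the members that carried another cell type's RNA, and without both sets, 12 genes reached 20 UMIs and 0 of 12 were at least 2-fold higher. Without both sets Id3 and Six6 had 1 UMI each in old and 1 each in young pituicytes. Id3 had 37 UMIs in 7 old and 1 UMI in 1 young pituicyte, a ratio of 22 (3.71 to 892), and 21 of the 37 UMIs came from the 6 cells high in Prdx6. Six3 was at 591 CPM in old and 563 CPM in young pituicytes, and Sox2 at 207 and 222 CPM. For Lhx2 the ratio was 0.965 (0.677 to 1.39) and for Tbx3 1.10 (0.862 to 1.42); differences within these intervals were not detectable at this depth.

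Signals to vessels were also measured. Ptn, which encodes the secreted growth factor pleiotrophin, was at 3849 CPM in old and 6381 CPM in young pituicytes, 1.66-fold (1.56 to 1.76) lower, with 243 and 218 CPM in other barcodes. Per cell Ptn ranged from 0 to 207 UMIs with a median of 21 in old, and from 0 to 129 with a median of 39 in young pituicytes. Vegfa, of vessel growth and permeability, was at 243 CPM in old and 204 CPM in young pituicytes, a ratio of 1.19 (0.881 to 1.62). The vasodilator peptide gene Adm was at 194 CPM in old and 241 CPM in young ones, a ratio of 0.806 (0.597 to 1.09), and of 1.33 (0.943 to 1.87) without both sets. Ccn2, a matricellular protein, was 2.42-fold (1.74 to 3.38) lower, and 68.5% of its 92 young UMIs lay in 5 cells. Over the 12 measured genes of the vascular list the median log2 ratio was -0.40, but 0.07 without both sets; Plvap, an endothelial gene, gave 28 UMIs in 2 old and 0 in young pituicytes.

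Genes that serve nerve endings were thinly covered. Of 37 receptors, transporters and channels listed, 6 reached 20 UMIs, and 1, the GABA receptor gene Gabrb1, was past 2-fold, on 26 old and 7 young UMIs; without both sets it had 5 old and 4 young UMIs. Slc6a6, the taurine transporter gene, was at 531 CPM in old and 825 CPM in young pituicytes, 1.56-fold (1.31 to 1.84) lower. The kappa opioid receptor gene Oprk1 and the vasopressin receptor gene Avpr1a had 0 UMIs in both sets. Transcripts of the axons' own hormones were also seen. Oxt (oxytocin) had 28 UMIs in old and 75 in young pituicytes, and 23 of the young UMIs lay in 1 cell. In CPM this was 50.7 in old and 228 in young pituicytes, against 107 and 116 in barcodes of at most 100 UMIs.

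Thyroid hormone handling, a known task of tanycytes, included 6 measured genes with 0 past 2-fold in either direction. Of these 5 had ratios above 1, with a median log2 ratio of 0.36. Without the members that carried another cell type's RNA 1 of 5 was at least 2-fold higher and 0 lower. Without both sets 0 of 5 were higher and 1 lower, with a median of -0.24. Dio2, the enzyme that activates thyroid hormone, was at 92.4 CPM in old and 131 CPM in young pituicytes, a ratio of 0.705 (0.461 to 1.08). On the list of tanycyte and radial glia genes, 3 of 20 were at least 2-fold higher and 4 at least 2-fold lower, and without both sets 1 of 18 was higher and 5 were lower. Nes, the intermediate filament gene nestin, had 46 UMIs in old and 8 in young pituicytes, 3.42-fold (1.6 to 8.39) higher, and Slit2, an axon guidance gene, was 2.25-fold (1.06 to 5.33) higher. After thinning to equal depth, however, Nes had a UMI in similar shares, 9.43% (3.1 to 20.7) of old and 8.89% (2.5 to 21.2) of young pituicytes.

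Among genes of lipid transport and the lysosome, Apoe was past 2-fold with all pituicytes. Apoe, the main lipid carrier of glia, was at 2744 CPM in old and 6122 CPM in young pituicytes, 2.23-fold (2.09 to 2.39) lower, and 1.63-fold (1.5 to 1.78) lower without both sets. A single young cell held 308 of its 2010 young UMIs. Apoe was also in free RNA, at 5738 CPM in the old and 4286 CPM in the young library in barcodes of at most 100 UMIs. Of 23 lysosome and autophagy genes, 20 had ratios below 1, with 0 at least 2-fold higher, 2 at least 2-fold lower and a median log2 ratio of -0.44. Psap, the precursor of lysosomal activator proteins, was at 467 CPM in old and 734 CPM in young pituicytes, and Npc2, a lysosomal cholesterol carrier, at 1022 and 1718 CPM. Without both sets Npc2 had a ratio of 1.03 (0.902 to 1.18) and the list a median of -0.15. Cholesterol and fatty acid synthesis genes had a median of 0.17 over 22 genes, with 0 at least 2-fold higher and 1 at least 2-fold lower.

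Of the D-type cyclin genes, Ccnd1 and Ccnd2 were at least 2-fold lower in old pituicytes and Ccnd3 was not. Ccnd1, which drives entry into the cell cycle, was at 54.3 CPM in old and 210.2 CPM in young pituicytes, 3.87-fold (2.48 to 6.15) lower, and Ccnd2 at 165 and 399 CPM, 2.42-fold (1.84 to 3.20) lower. Ccnd3 was at 87.0 and 85.3 CPM. Without both sets Ccnd1 was 2.18-fold (1.31 to 3.78) lower and Ccnd2 3.72-fold (2.36 to 6.11) lower. Other candidate barcodes showed the same order, with Ccnd1 at 55.1 CPM in the old and 195 CPM in the young library and Ccnd2 at 253 and 648 CPM. Of 20 genes on the list of D-type cyclins and proliferation 5 were measured, with 0 at least 2-fold higher and 2 lower. On the list of p53 and senescence genes, 1 of 13 was at least 2-fold higher and 1 at least 2-fold lower, with a median of -0.25; Cdkn1a, a p53 target, had 25 old and 7 young UMIs, and Cdkn1c was at 495 CPM in old and 859 CPM in young pituicytes, a ratio of 0.576 (0.486 to 0.682) and, without both sets, of 0.895 (0.738 to 1.08).

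Immune-related lists depended on which members were counted. MHC class I genes had a median log2 ratio of 0.43 over 11 genes, with 2 at least 2-fold higher and 0 lower, and -0.08 without both sets, where 0 of 5 were higher. Interferon response genes had a median of 0.17, with 2 of 18 at least 2-fold higher and 2 at least 2-fold lower, and of -0.21 without both sets, with 0 of 7 higher and 2 lower. Isg15 had 14 UMIs in old and 33 in young pituicytes, 3.96-fold (2.06 to 8.02) lower, and Ifitm3 was 2.21-fold (1.79 to 2.73) lower. Cxcl10 had 1 old and 25 young UMIs, 42.0-fold (6.88 to 1726) lower in old and, without both sets, 19.1-fold (3.13 to 784) lower. Chemokines had a median of 0.59 with all pituicytes, 4 of 12 at least 2-fold higher and 3 at least 2-fold lower. Their median was -0.028 without the members that carried another cell type's RNA, with 1 of 7 higher and 1 lower, and -0.357 without both sets, with 0 of 6 higher and 2 lower. Ccl5, a T cell chemokine, had 79 UMIs in 11 old pituicytes and 0 in young ones, and was at 143 CPM in old pituicytes against 488 CPM in barcodes of at most 100 UMIs. C1qb, of macrophages, had 40 UMIs in old and 83 in young pituicytes, with 80 of the young UMIs in 1 cell. Of the 8 measured reactive glia genes 1 was at least 2-fold higher and 3 at least 2-fold lower, and without both sets 0 of 5 were higher and 2 lower. Over all genes 8.07% were higher and 2.89% lower. Heat shock genes had a median of 0.16, with 2 of 13 at least 2-fold higher and 0 lower, and with 0 of 12 higher without both sets. For adhesion and junction genes the median was -0.21, and 1 of 16 was at least 2-fold higher and 0 were lower.

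The lists of secretory granule genes and of immediate early genes had medians above 0 with all pituicytes and lower ones without both sets. Secretory granule genes had a median log2 ratio of 0.84, with 5 of 10 at least 2-fold higher and 0 lower, and 0.19 without both sets, with 2 of 7 higher. Chgb was at 817 CPM in old and 116 CPM in young pituicytes, below the 1391 and 1075 CPM of other barcodes. Its ratio was 7.06 (5.06 to 10.1), and 2.52 (1.54 to 4.21) without both sets. Immediate early genes had a median of 0.68, with 4 of 22 at least 2-fold higher and 1 at least 2-fold lower, and -0.03 without both sets, with 1 of 17 higher and 1 lower. Fos was at 3507 CPM in old and 2065 CPM in young pituicytes, 1.70-fold (1.56 to 1.86) higher, and 0.980-fold (0.854 to 1.12) of the young level without both sets. The part of other cells' RNA in these values was not tested beyond these exclusions. Imprinted genes had a median of 0.23, with 3 of 16 at least 2-fold higher and 1 lower, and without both sets 0 of 13 were higher and 1 lower. Nnat was at 3081 CPM in old and 761 CPM in young pituicytes, and 1.01-fold (0.773 to 1.31) without both sets. Receptor genes for growth factors and steroids had a median of -0.26, with 4 of 18 at least 2-fold higher and 3 at least 2-fold lower. Without the members that carried another cell type's RNA 0 of 11 were higher and 2 lower, and without both sets 0 of 10 were higher and 2 lower, with a median of -0.60. Il6st, the shared receptor subunit of the IL-6 family, was 2.41-fold (1.48 to 3.98) lower.

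**Figure D5:**
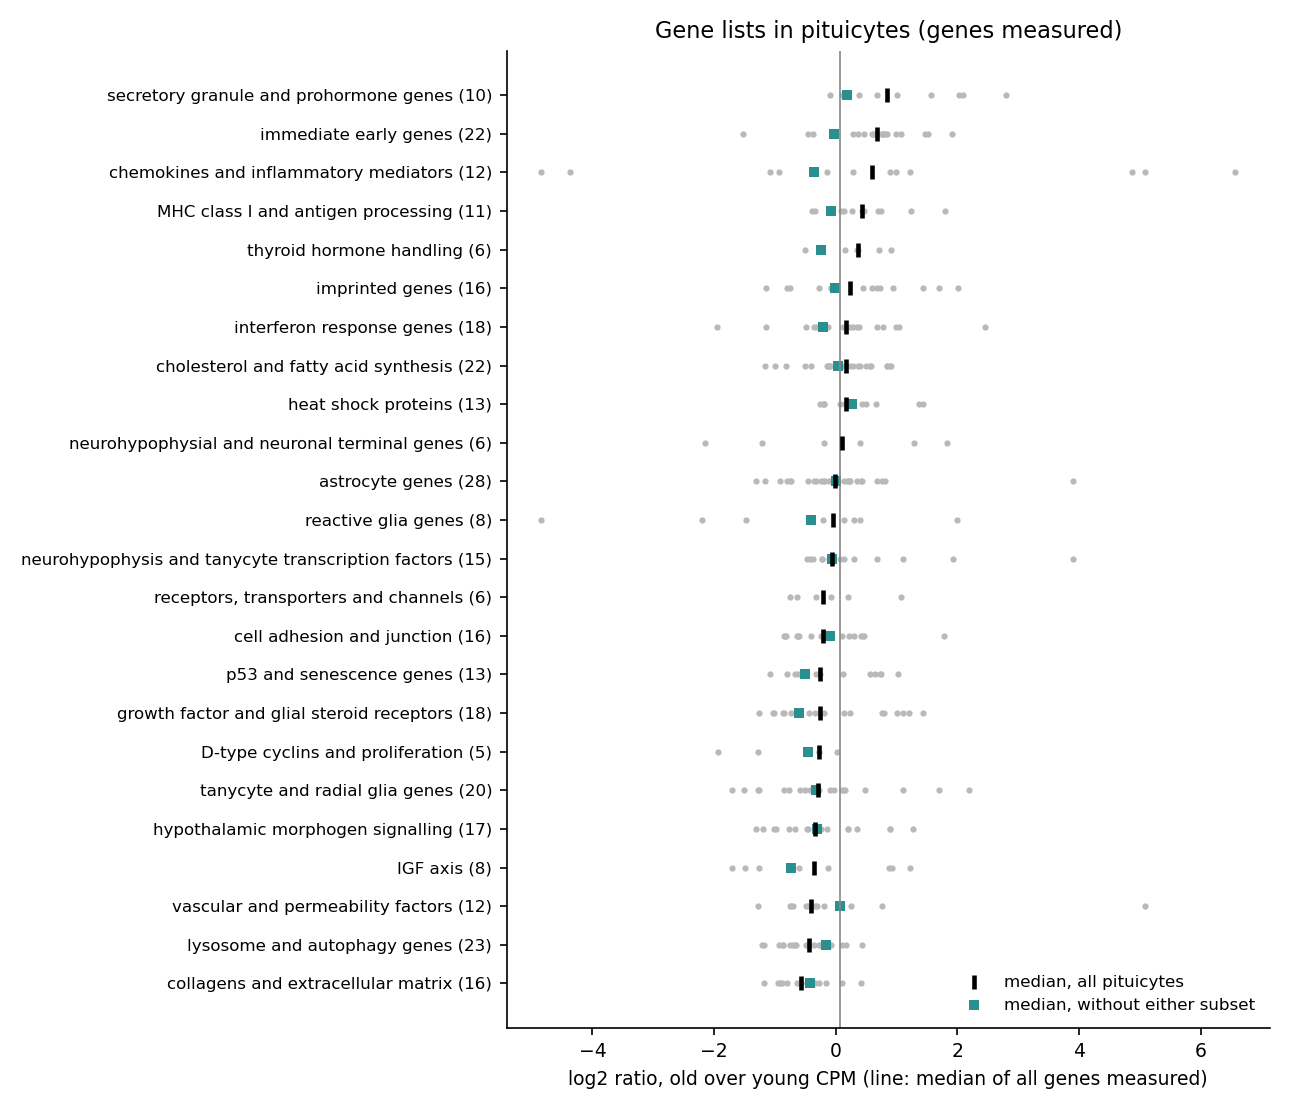
Log2 ratio of CPM, old over young, for the measured genes of each list (grey points) with the list's median over all pituicytes (black bar) and without both sets described in the text (teal square). The vertical line is the median of all 6979 genes, 0.08. Lists with at least 5 measured genes are shown. Matrix and lysosome genes have the lowest medians of these over all pituicytes, and the medians of granule and immediate early genes lie nearer the line as squares.

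Variation among single pituicytes was ranked by the smaller of the 2 libraries' ratios of variance to mean, with hormone genes left out. After thinning to 2000 UMIs, the variance of Malat1, a nuclear long noncoding RNA, was 111 times its mean in old and 85.5 times in young pituicytes, against medians of 1.99 and 1.65 times over the 82 genes with at least 50 thinned UMIs in each library. By the smaller ratio Malat1 was followed by Fos, Junb, Jun and Btg2, at 4.24 to 9.76 times, and then by Apoe, Tpt1, Ptn, Cst3 and Arl6ip1. The order differed in old pituicytes alone, where Nnat was at 12.6 times and Cst3 at 5.59 times, against 2.91 and 3.16 times in young ones. Fos ranged from 1 to 292 UMIs per old pituicyte with a median of 9, and from 0 to 103 per young pituicyte with a median of 3. Malat1 made up a median of 6.03% of UMIs in old pituicytes (range 0.066 to 28.4%) and 5.2% in young ones (range 0 to 18.0%). It was under 0.5% in 7 old and 8 young pituicytes. In these cells Col25a1 was at 5.10 UMIs per 10000 in old and 5.52 in young ones, against 10.7 and 14.9 in the other pituicytes. Ptn did not follow, at 34.9 per 10000 in old and 68.4 in young low-Malat1 cells, against 32.2 and 50.7 in the others.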

How the data were processed

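The authors deposited 1 matrix of unnormalized UMI counts (genes by barcodes) per library. Per the submitters' processing notes the reads were processed with Cell Ranger 6.0.2 on GRCm39, whereas the matrix header names Cell Ranger 4; which made the deposited matrix was not resolved. Barcodes were filtered as described above, UMIs were summed over the pituicytes of each library, and CPM excluded 7 hormone and 13 mitochondrial genes. Ratios carry exact conditional Poisson intervals and shares Clopper-Pearson intervals, both for counting error only. Log2 ratios in list medians add 0.5 UMIs to each sum. Genes needed 20 UMIs over both sets. A difference of 2-fold is a size, not a test. The members and gene lists were chosen with earlier results of these data known. Named age genes were the 12 with the largest ratios in each direction among those past 2-fold that passed limits of 30 UMIs, 100 CPM and 20% of cells in the higher library and a 2-fold margin over free RNA; examples from lists were their 4 most abundant genes and those past 2-fold. Some further genes were named after their values were seen. Some genes that enter these counts are not reported here. The ratios and their intervals were tested on simulated counts. Python 3.11.15, numpy 2.4.6, scipy 1.17.1, pandas 2.3.3, scanpy 1.11.5 and matplotlib 3.10.9 were used.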

Additional observations from a re-analysis of the deposited data

How the results depend on the processing

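The share of pituicytes moved with most limits on barcodes. In old glands it was 0.259% with a minimum of 1000 UMIs, 0.878% with 3000 and 1.68% with 5000, and the ratio of old over young was 0.605, 1.73 and 2.91. A mitochondrial limit of 10% gave 0.371% in old and 0.284% in young glands. The marker rule after thinning gave 0.266% in old glands and a ratio of 0.661. Without members carrying another cell type's RNA the old share was 0.327%, and without both sets 0.276% with a ratio of 0.620. The count of genes at least 2-fold higher in old pituicytes was 300 under the thinned rule, 306 without members carrying another type's RNA, 277 when free RNA was also subtracted from that set, 174 without both sets, 130 with a minimum of 50 UMIs per gene and 2496 with none. The count of lower genes was 132 without members carrying another type's RNA, 357 with the mean over cells, 66 with the minimum of 50 UMIs and 1562 with none. Scaling to the median gene gave 460 higher and 254 lower genes. Of the 24 named genes under 20 alternatives, 447 values stayed past 2-fold in the same direction, 32 were under it, and Snhg11 turned to -0.65 without both sets. That Snhg11 value keeps the young cell that held 17 of the 19 young UMIs. Counted by gene, 9 of the 24 stayed past 2-fold under every alternative. The chemokine median turned to -0.028 without members carrying another type's RNA, to -0.008 with free RNA subtracted as well and to -0.36 without both sets, and the immediate early gene median to -0.029 without both sets. Of 24 lists, 17 moved by less than 0.5 under every alternative run. The cause of these shifts was not tested. The limits on 5000 UMIs and on both sets were chosen after seeing the data. No paired analysis was possible because each age has 1 library, so leaving out a replicate was not possible either, and the depth of 53 old and 45 young cells limits every value of a gene with few UMIs.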
